A study of Mus musculus with 12 samples.

Results

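The Onecut transcription factors Onecut1, Onecut2 and Onecut3 were followed through mouse duodenum in which Onecut2 had been ablated. The array features whose only gene symbol is a family member were taken, and each of the 3 genes had 1 such feature among 19938 genes measured. Onecut1 lies on mouse chromosome 9, Onecut2 on chromosome 18 and Onecut3 on chromosome 10. Groups of 3 arrays were compared, namely wild type at postnatal day 15, Onecut-2 knockout at day 15, wild type at day 30 and Onecut-2 knockout at day 30. All mice were of strain 129 and untreated, and RNA of 5 to 8 animals of both sexes went onto each array, so the spread between arrays is that between pools. The labels call the arrays of a group biological replicates. The labels do not say which part of Onecut2 was removed, or in which cells.

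Onecut proteins bind DNA through a cut domain followed by a homeodomain. Onecut1, also called HNF6, acts in liver, bile ducts and pancreas, Onecut2 overlaps with it in the early liver and is also made in neurons and gut, and Onecut3 is known from the nervous system and the gut. Because the family members recognise much the same DNA, a loss of any of them raises the question of whether its relatives change too. Onecut2 is also known to bind the duodenal enhancer of Ada, the gene of adenosine deaminase.

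Values are log2 signals from the deposited table, in which a difference of 1 is a doubling. Log2 differences were tested with limma over all genes, were called at a Benjamini-Hochberg adjusted p under 0.05, and carry a 95% interval from the moderated standard error. Group means are given ± SD over 3 arrays. All 12 enterocyte markers, among them villin (Vil1) and the fatty acid binding protein gene Fabp1, were above the 95th percentile of the olfactory receptor genes (6.48) in each group. The mean of these markers ran from 12.93 to 12.97 in wild type at day 15, from 13.01 to 13.03 in knockout at day 15, from 12.88 to 12.96 in wild type at day 30 and from 13.02 to 13.07 in knockout at day 30. Of 12 pancreas acinar markers 11 were above that percentile in each group, so the segments also carried pancreatic transcripts, while of 9 liver markers 2 or 3 were.

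Onecut2 was high on every wild type array and low on every knockout array. At day 15 the wild type arrays read 9.55, 9.69 and 9.68 and the knockout arrays 8.09, 8.13 and 8.20. At day 30 the wild type arrays read 9.63, 9.50 and 9.62 and the knockout arrays 8.24, 8.25 and 8.18. The groups overlapped at neither age, which held for 21.3% of all genes at day 15 and 15.4% at day 30, and the gap between genotypes was far wider than the spread within any group.

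**Figure D1:**
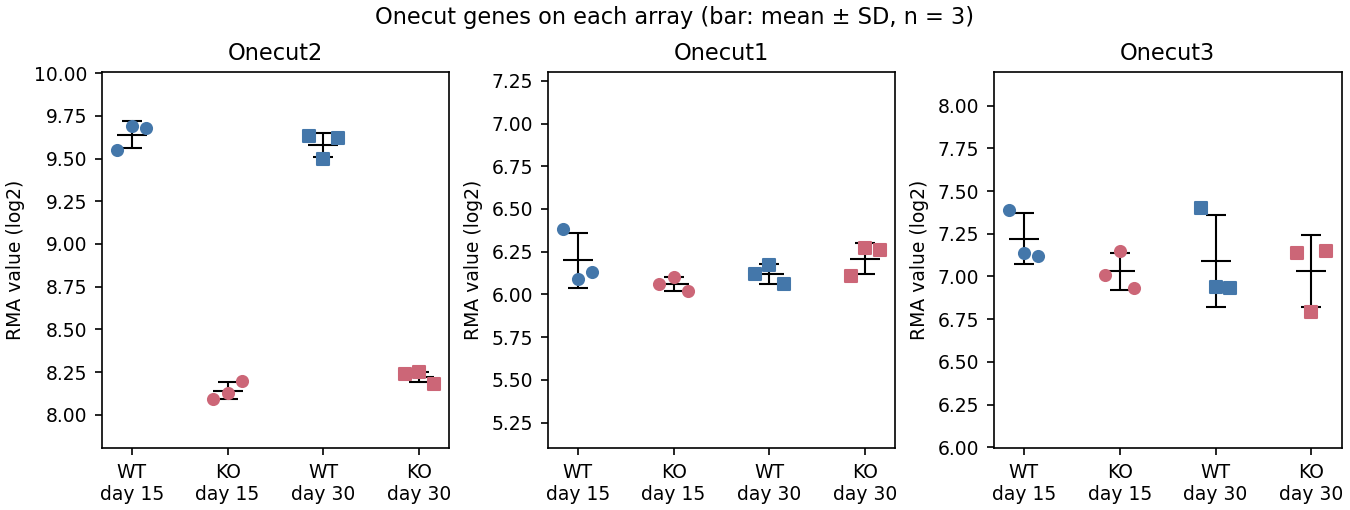
Log2 signal of Onecut2, Onecut1 and Onecut3 on each of the 12 arrays (points; WT wild type, KO knockout), with group mean and SD as bars (n = 3) and panels of equal height in log2 units. Onecut2 separates into wild type arrays at 9.50 or above and knockout arrays at 8.25 or below, while the arrays of Onecut1 and Onecut3 lie close together in all 4 groups.

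Mean Onecut2 signal at day 15 was 9.64 ± 0.08 with the gene and 8.14 ± 0.05 without it, giving a log2 difference of -1.50 (95% interval -1.63 to -1.37, limma adjusted p = 2.0e-08). The knockout signal was thus 35.3% of the wild type signal (interval 32.3 to 38.6%). For day 30 these were 9.58 ± 0.07 and 8.22 ± 0.03, giving a log2 difference of -1.36 (interval -1.49 to -1.23, limma adjusted p = 8.8e-08), which left 38.9% of the signal (interval 35.6 to 42.5%). Of all genes, 3.83% were called at day 15 and 1.98% at day 30. By size of the fall Onecut2 ranked 10 at day 15 and 7 at day 30, and by p-value it ranked 4 and 3. An exact two-sided permutation test gave 0.1 at each age, the smallest p that 3 against 3 arrays allow.

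The fall of Onecut2 was not shown to differ between the ages. The difference between the genotype effects, day 30 minus day 15, was 0.14 (interval -0.04 to 0.32, limma adjusted p = 0.71), where 0.456% of all genes were called. Averaged over both ages, knockout minus wild type was -1.43 (interval -1.52 to -1.34, limma adjusted p = 1.0e-09). The enterocyte marker mean, given above, was higher in each knockout group than in the wild type of its age, opposite in direction to Onecut2. Its arrays did not overlap between genotypes at either age, so as a covariate it runs nearly with genotype. A call lost with it therefore cannot tell enterocyte content from genotype. With that mean as a covariate the log2 differences of Onecut2 were -1.56 at day 15 and -1.47 at day 30, and both were called. With the smooth muscle mean in the model they were -1.49 and -1.36. Of 11 smooth muscle markers 2 fell in the knockout at day 15, beside 2.03% of all genes called lower. At an unadjusted p under 0.05 10 were lower. The share of all genes at that unadjusted threshold was not counted, for this list or for those below. All 11 muscle markers had negative differences at day 15, from -0.31 to -0.14 with a median of -0.21, beside -0.01 over all genes. By limma 0 of the 11 were called at day 30, where 1 was lower at an unadjusted p under 0.05 and the median was -0.07. Of 9 stomach and Brunner gland markers 4 fell at day 15 and 1 at day 30, beside 2.03% and 0.943% of all genes, with medians of -0.61 and -0.01. At an unadjusted p under 0.05 5 of the 9 were lower at day 15 and 3 at day 30, and 0 were higher at either age. Their day 30 differences ran from -0.36 to 0.49. Averaged over both ages 4 of the 9 were called lower and 0 higher, where 5.34% of all genes were called. Of 10 markers of enteric neurons and glia 1 rose and 1 fell at day 15, beside 1.81% and 2.03% of all genes. These were Ret, at 1.15 (limma adjusted p = 1.9e-04), and S100b, at -1.70 (limma adjusted p = 2.1e-06). At an unadjusted p under 0.05 1 of the 10 was higher and 5 were lower at day 15, with a median of -0.19. By limma 0 of the 10 were called at day 30, with a median of -0.02. Of 12 enteroendocrine markers 2 rose and 2 fell at day 15, beside 1.81% and 2.03% of all genes. At day 30 2 rose and 1 fell, beside 1.04% and 0.943% of all genes. The medians were 0.01 and -0.00. Of the 12 pancreas acinar markers 0 were called by limma at either age, while at an unadjusted p under 0.05 1 was higher and 5 lower at day 15 and 1 lower at day 30. Their medians were -0.27 at day 15 and -0.31 at day 30, beside -0.01 and -0.00 over all genes. At day 30 all 12 were negative, from -0.52 to -0.05. Averaged over both ages 8 of the 12 were lower at an unadjusted p under 0.05. The part of these cell types in the Onecut2 difference was not tested beyond the covariates. In bulk tissue, fewer cells of a type and less RNA per cell cannot be told apart.

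The Onecut2 signal left in the knockout was not near the floor of the array. Olfactory receptor genes, which are best known from the nose, served as a gauge of dim features, with a median of 4.72 and a 99th percentile of 7.19 over 1027 genes. In each knockout group 2 of the 1027 lay above the Onecut2 mean, and in each wild type group 0 did. Probes differ in how brightly they shine, so this gauge is a description and not a detection test. Where the probes of the feature lie relative to the deleted part is not known here, so the remaining signal does not measure remaining functional transcript.

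Onecut2 did not change detectably with age in either genotype. In wild type the log2 difference, day 30 minus day 15, was -0.06 (interval -0.18 to 0.07, limma adjusted p = 0.52). In knockout it was 0.08 (interval -0.04 to 0.21, limma adjusted p = 0.32). By comparison, 29.3% of all genes were called with age in wild type and 31% in knockout. The levels of Onecut2 therefore ran in the order wild type day 15, wild type day 30, knockout day 30 and knockout day 15, and within each genotype the neighbouring ages did not differ beyond their spread.

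Onecut1, the liver and pancreas member of the family, showed no call in any comparison. Its wild type arrays read 6.38, 6.09 and 6.13 at day 15 and 6.12, 6.17 and 6.06 at day 30. Its knockout arrays read 6.06, 6.10 and 6.02 at day 15 and 6.11, 6.27 and 6.26 at day 30. The genotypes overlapped at both ages, and wild type replicate 1 at day 15 stood above the other 11 arrays. Between 89.4% and 92.3% of the olfactory receptor genes lay below the Onecut1 group means, so its signal was within the range of dim features.

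Knockout minus wild type for Onecut1 was -0.14 at day 15 (interval -0.30 to 0.03, limma adjusted p = 0.46) and 0.10 at day 30 (interval -0.07 to 0.26, limma adjusted p = 0.75). Averaged over both ages it was -0.02 (interval -0.14 to 0.10). The upper bounds correspond to ratios of knockout to wild type of 1.02 at day 15 and 1.20 at day 30, on a scale that flattens for dim features. With age Onecut1 moved by -0.08 in wild type (interval -0.25 to 0.09) and by 0.15 in knockout (interval -0.01 to 0.32, limma adjusted p = 0.16). In the knockout the 3 arrays of day 30 lay just above the 3 of day 15, as the arrays of 42.8% of all genes did not overlap between those ages in either direction. Without day 15 replicate 1 the wild type age difference was 0.01.

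Onecut3, the member known from the nervous system and gut, also had no call. Its wild type arrays read 7.39, 7.14 and 7.12 at day 15 and 7.40, 6.94 and 6.93 at day 30. Its knockout arrays read 7.01, 7.15 and 6.93 at day 15 and 7.14, 6.79 and 7.15 at day 30. All 4 groups overlapped, and the highest value of each age came from a wild type array labelled replicate 1. Between 98.2% and 99% of the olfactory receptor genes lay below the Onecut3 group means.

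The SDs of Onecut3 within groups ran from 0.11 in knockout at day 15 to 0.27 in wild type at day 30. Knockout minus wild type was -0.19 at day 15 (interval -0.48 to 0.10, limma adjusted p = 0.60) and -0.06 at day 30 (interval -0.35 to 0.23, limma adjusted p = 0.94). The day 30 value turned to 0.09 without wild type replicate 1 and to 0.06 without knockout replicate 2. The upper bounds of the intervals correspond to ratios of 1.07 and 1.17. With the smooth muscle mean in the model the day 15 difference was -0.66, and with the enterocyte mean the day 30 difference was -0.26, neither called. With age Onecut3 moved by -0.12 in wild type (interval -0.41 to 0.17) and by 0.00 in knockout (interval -0.29 to 0.29). The intervals of Onecut1 and Onecut3 at both ages thus lay wholly above those of Onecut2.

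Other genes that join a cut domain to a homeodomain were set beside the Onecut genes. Of 4 listed, 3 were measured. Cux1 and Cux2 are the mammalian relatives of the fly gene cut, and Satb1 organises chromatin, best known in T cells. None was called with genotype at either age by limma, while at an unadjusted p under 0.05 1 was lower at each age. The median log2 difference of the 3 was -0.15 at day 15 and -0.07 at day 30, beside -0.01 and -0.00 over all genes.

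Satb1 came nearest to a genotype call. Its wild type and knockout means were 7.58 ± 0.09 and 7.35 ± 0.04 at day 15, and 7.13 ± 0.07 and 6.96 ± 0.06 at day 30. Its log2 differences were -0.22 (limma adjusted p = 0.066) and -0.17 (limma adjusted p = 0.24). Averaged over both ages Satb1 was lower by 0.20 in the knockout, at -0.20 (interval -0.29 to -0.11, limma adjusted p = 0.018), where 5.34% of all genes were called. That call ended with the enterocyte, pancreas acinar or smooth muscle marker mean as a covariate.

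Satb1 and Cux1 fell with age, and whether they differed in this from the Onecut genes was not tested. They were 2 of the 3 measured in each genotype, beside 17% of all genes called lower in wild type and 17.2% in knockout. In wild type Satb1 fell by 0.45 (limma adjusted p = 9.8e-05) and in knockout it fell by 0.40 (limma adjusted p = 2.7e-04). The fall of Cux1 was smaller, as it fell by 0.23 with the gene intact (limma adjusted p = 0.014) and fell by 0.21 without it (limma adjusted p = 0.026). Smooth muscle markers moved with age as well, since 11 of 11 fell in each genotype, beside 17% and 17.2% of all genes. Their mean in wild type went from 10.76 to 10.85 at day 15 to 10.07 to 10.23 at day 30. In knockout the muscle mean went from 10.49 to 10.66 at day 15 to 10.08 to 10.12 at day 30. It overlapped between ages in neither genotype, so as a covariate it runs nearly with age. A call lost with it therefore cannot tell muscle content from age. With the muscle mean added to the model all 4 of these calls ended and the differences of Cux1 turned to 0.36 and 0.23. The part of muscle tissue in these differences was not tested beyond this. Cux1 also lost its wild type call without day 15 replicate 3 or day 30 replicate 1, and its knockout call without day 15 replicate 1 or 3 or day 30 replicate 3. It lost its knockout call also after centring on array medians or with the enterocyte mean as a covariate.

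**Figure D2:**
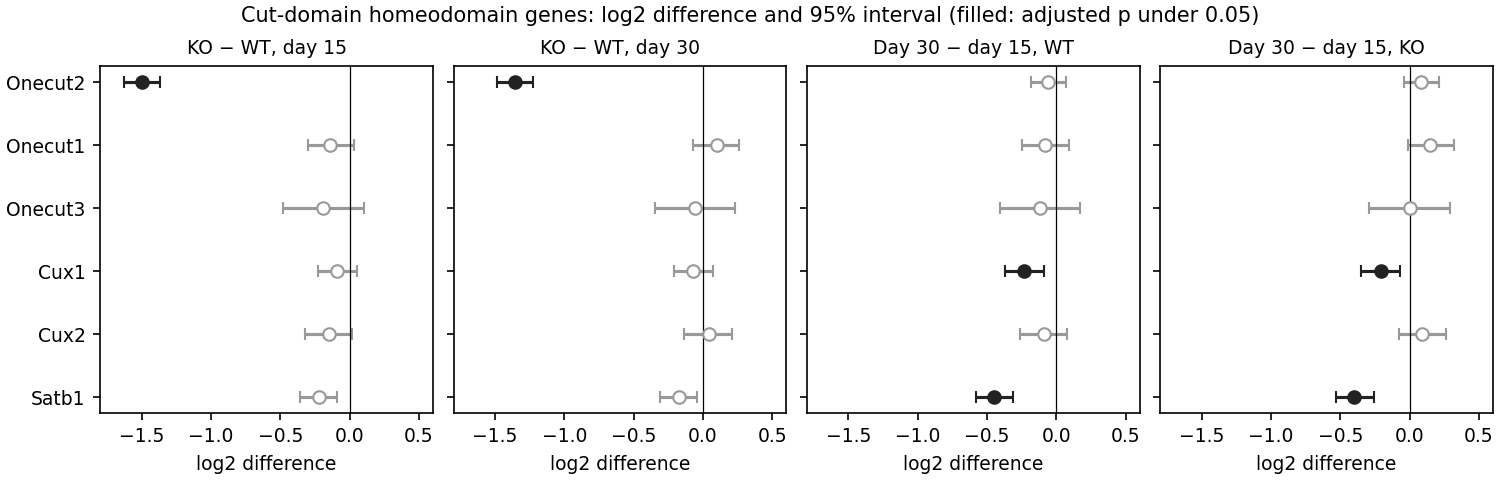
Log2 difference with 95% interval for the 3 Onecut genes and 3 other cut-domain homeodomain genes (rows) in 4 comparisons (panels; filled points have a limma adjusted p under 0.05). Onecut2 stands at -1.50 and -1.36 with genotype and near 0 with age, while Cux1 and Satb1 are called with age in both genotypes.

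Transcription factors that pattern the endoderm and often share enhancers with Onecut proteins differed with genotype by -0.22 to 0.47 at day 15. At day 30 they differed by -0.24 to 0.20. Of 22 listed, 20 were measured. At day 15, 2 rose and 0 fell in the knockout, with a median of 0.07, where 1.81% of all genes rose and 2.03% fell. At day 30, 0 rose and 0 fell by the limma test, with a median of 0.01, where 1.04% of all genes rose and 0.943% fell. At an unadjusted p under 0.05, 4 were higher and 2 lower at day 15, and 2 were higher and 2 lower at day 30. Averaged over both ages 1 was called higher and 2 lower, where 5.34% of all genes were called. The risers at day 15 were Klf4, a factor of goblet cells and of cell cycle exit, and Cebpa, a factor of liver and fat cell differentiation.

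Wild type and knockout means of Klf4 were 9.83 ± 0.15 and 10.30 ± 0.05 at day 15, and 10.64 ± 0.07 and 10.66 ± 0.13 at day 30. The day 15 difference was 0.47 (SE 0.08, limma adjusted p = 0.0075). Its genotype effects at the ages were not shown to differ, at -0.45 for day 30 minus day 15 (limma adjusted p = 0.17). Means of Cebpa were 8.38 ± 0.06 and 8.70 ± 0.10 at day 15, with a difference of 0.31 (limma adjusted p = 0.019). The Klf4 call ended with the enterocyte or smooth muscle mean as a covariate. The Cebpa call ended with those or the pancreas acinar mean, in a fit to the 6 arrays alone, and without knockout replicate 3 or wild type replicate 1 or 2.

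Pdx1, the factor of pancreas and duodenum, and Sox9, a factor of crypt progenitors, were slightly lower in the knockout at both ages without a call at either. Pdx1 differed by -0.22 at day 15 and -0.24 at day 30 (limma adjusted p = 0.13 at each). Sox9 differed by -0.16 (limma adjusted p = 0.14) and -0.21 (limma adjusted p = 0.068). Averaged over both ages Pdx1 stood at -0.23 (interval -0.34 to -0.12, limma adjusted p = 0.018) and Sox9 at -0.19 (interval -0.27 to -0.11, limma adjusted p = 0.012). Both of these calls ended with any of the 3 marker means as a covariate, and that of Pdx1 also without day 15 replicate 2 of either genotype. The Foxa factors, which open chromatin in endoderm, lay between -0.10 and 0.11 at both ages.

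With age the same list split. In wild type 7 rose and 3 fell, beside 12.3% and 17% of all genes. In knockout 8 rose and 5 fell, beside 13.8% and 17.2% of all genes. In wild type Pdx1 rose by 0.47, Klf4 rose by 0.82 and Gata6, an endodermal factor of the crypt, fell by 0.32. In knockout the same genes rose by 0.44, rose by 0.36 and fell by 0.38. Over the 17 alternatives run for each, these 6 calls were lost with the muscle mean in the model and kept in the others.

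**Figure D3:**
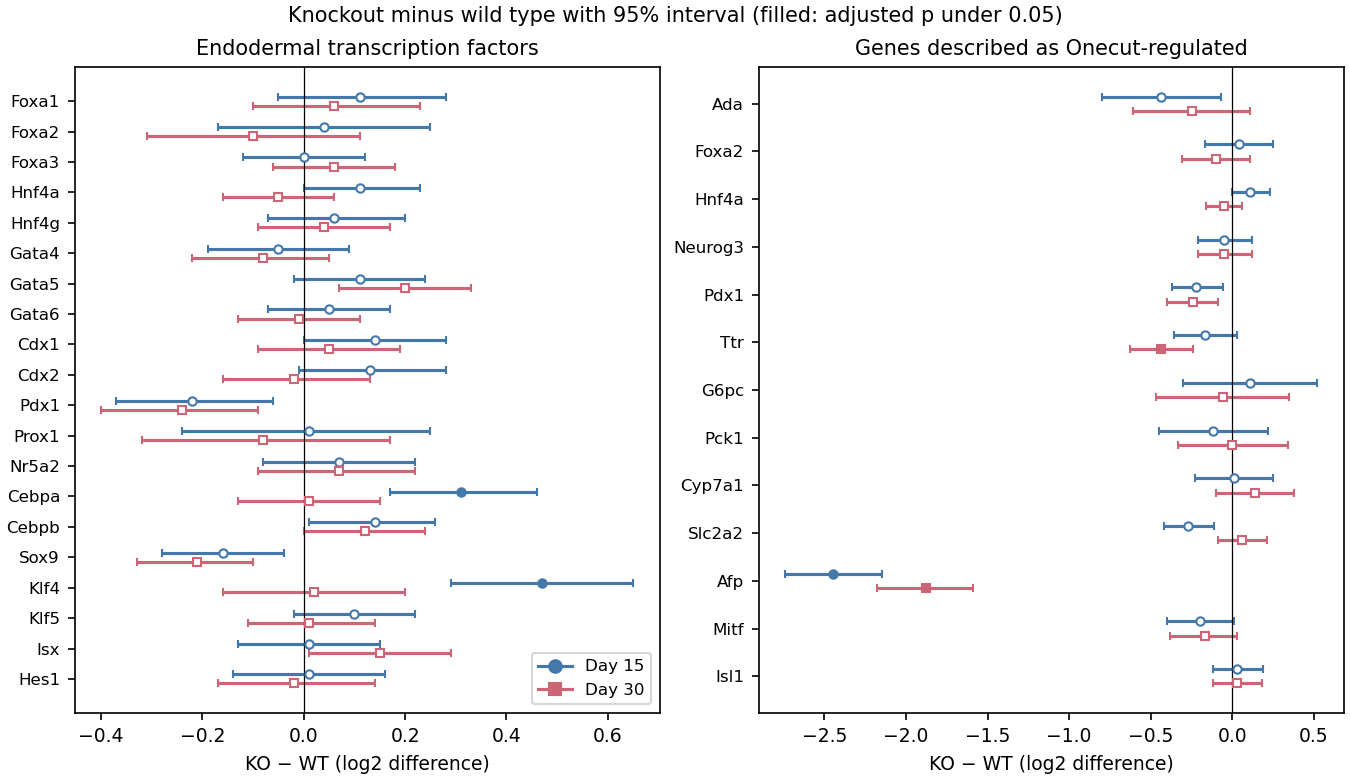
Knockout minus wild type log2 difference with 95% interval at day 15 (circles) and day 30 (squares) for endodermal transcription factors (left) and genes described as Onecut-regulated (right), filled where the limma adjusted p is under 0.05. Most intervals on the left lie within 0.5 of 0, and Afp on the right stands apart at -2.45 and -1.88 (the axes of the panels differ).

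Genes that earlier work describes as Onecut-regulated in liver, pancreas, neurons or duodenum were compared next. Of 17 listed, 13 were measured. At day 15, 0 rose and 1 fell by limma, beside 1.81% and 2.03% of all genes, with a median of -0.12. At an unadjusted p under 0.05, 1 was higher and 4 were lower. At day 30, 0 rose and 2 fell by limma, beside 1.04% and 0.943% of all genes, with a median of -0.06, and at an unadjusted p under 0.05, 0 were higher and 3 lower. The genes that fell were Afp, which encodes the fetal serum protein alpha-fetoprotein, at both ages and Ttr, the thyroid hormone carrier transthyretin, at day 30.

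Wild type and knockout means of Afp were 9.12 ± 0.16 and 6.68 ± 0.15 at day 15, and 8.43 ± 0.21 and 6.55 ± 0.25 at day 30. Its differences were -2.45 (limma adjusted p = 4.8e-07) and -1.88 (limma adjusted p = 1.1e-05), and both were called in all 17 alternatives. In wild type Afp also fell by 0.69 with age (limma adjusted p = 0.0017), a call lost with the muscle mean in the model, whereas in knockout its age difference was -0.13 (limma adjusted p = 0.52). Its knockout means lay near the 95th percentile of the olfactory receptor genes (6.48), where a fall would be flattened. The genotype effects of Afp at the ages were not shown to differ (0.57, limma adjusted p = 0.34). Of 9 liver markers 0 were called by limma at day 15 (1 was lower at an unadjusted p under 0.05) and 1 was higher in the knockout at day 30, beside 3.83% and 1.98% of all genes called, with medians of -0.00 and 0.03.

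Ttr had day 30 means of 8.44 ± 0.15 and 8.00 ± 0.13, with a difference of -0.44 (limma adjusted p = 0.024). That call ended in 7 of 17 alternatives, among them the enterocyte mean as a covariate (-0.17) and leaving out either knockout replicate 1 or 2 or wild type replicate 2 or 3. The endocrine progenitor factor Neurog3 differed by -0.05 at each age, and the enzyme genes G6pc and Pck1 of glucose production lay between -0.12 and 0.11. With age 3 of the 13 rose and 5 fell in wild type, beside 12.3% and 17% of all genes. In knockout 2 rose and 4 fell, beside 13.8% and 17.2%. In wild type G6pc fell by 2.95 and Pck1 fell by 3.01 from day 15 to day 30. In knockout G6pc fell by 3.12 and Pck1 fell by 2.89. The call of Pck1 in knockout held in all 17 alternatives tried, and the other 3 calls of G6pc and Pck1 were lost with the muscle mean in the model and kept in the others. Ttr fell by 0.65 with age in wild type and by 0.92 in knockout, and Isl1 fell by 0.52 in each. Hnf4a rose by 0.23 in wild type. These age calls of Ttr, Isl1 and Hnf4a were also lost with the muscle mean.

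Ada, with its Onecut2-bound duodenal enhancer, was lower on average in the knockout without a call. Its wild type and knockout means were 12.24 ± 0.27 and 11.81 ± 0.34 at day 15, and 12.91 ± 0.20 and 12.66 ± 0.12 at day 30. The genotype difference averaged over both ages was -0.34 (interval -0.60 to -0.09, limma adjusted p = 0.13). The groups overlapped at each age.

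Genes whose levels ran most like those of Onecut2 were ranked by the root mean square difference between centred log2 values over the 12 arrays. Because Onecut2 follows genotype, this measure picks genes that differ by genotype, so their direction is not a separate finding. The nearest 5 were Rtn4rl1 (0.27), Wdr72 (0.29), Nat8f2 (0.33), Mptx1 (0.34) and Slc37a2 (0.35), in log2 units, beside a root mean square of 0.72 for Onecut2 about its own mean. Rtn4rl1 encodes a Nogo receptor relative, Nat8f2 an acetyltransferase, Mptx1 a pentraxin of the gut and Slc37a2 a sugar-phosphate exchanger. Within 0.5 of Onecut2 there were 37 genes, with predicted loci left out.

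Wild type and knockout means of Rtn4rl1 were 8.87 ± 0.14 and 8.00 ± 0.21 at day 15, and 8.83 ± 0.08 and 7.81 ± 0.05 at day 30. Those of Wdr72 were 9.34 ± 0.10 and 7.97 ± 0.08 at day 15, and 9.37 ± 0.14 and 8.63 ± 0.14 at day 30. Their age differences in wild type were -0.04 and 0.03, whereas Wdr72 rose by 0.65 in the knockout, a call lost with the muscle mean in the model. That difference between the genotypes in age effect was 0.62 and was not called (limma adjusted p = 0.053). Wild type and knockout means of Nat8f2 were 7.32 ± 0.13 and 5.83 ± 0.09 at day 15, and 8.04 ± 0.13 and 6.04 ± 0.16 at day 30. Its knockout means lay among dim features, under the 95th percentile of the olfactory receptor genes (6.48). The day 15 differences of Rtn4rl1, Mptx1 and Slc37a2 lost their call with the muscle mean in the model, and that of Slc37a2 also with the enterocyte mean. The day 30 differences of Rtn4rl1, Wdr72, Mptx1 and Slc37a2 lost theirs with the enterocyte mean. Over all alternatives the day 30 differences ran from -1.19 to -0.98 for Rtn4rl1 and from -0.82 to -0.67 for Wdr72. They ran from -0.91 to -0.70 for Mptx1 and from -1.35 to -1.18 for Slc37a2. None of the 5 nearest genes lies on chromosome 18, where Onecut2 is.

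The genes nearest to the sign-turned pattern of Onecut2 were Guca2a (0.25), Slc5a12 (0.25), Gcg (0.30), Ugt2b36 (0.30) and Xpnpep2 (0.39). Guca2a encodes the secreted peptide guanylin, Slc5a12 a lactate transporter, Gcg proglucagon, Ugt2b36 a glucuronosyltransferase and Xpnpep2 a membrane aminopeptidase. Wild type and knockout means of Guca2a were 9.10 ± 0.11 and 10.93 ± 0.16 at day 15, and 8.93 ± 0.15 and 10.57 ± 0.14 at day 30. Slc5a12 had day 15 means of 5.74 ± 0.27 and 7.37 ± 0.27, and its log2 differences were 1.63 at day 15 and 1.32 at day 30. Its wild type means at both ages lay among dim features, under the 95th percentile of the olfactory receptor genes (6.48). On every array of the knockout Guca2a and Slc5a12 were higher than on any wild type array. Picking by the Onecut2 pattern favours such a separation, so it is not a separate finding. Of all genes 21.3% did not overlap between genotypes at day 15 and 15.4% at day 30, in either direction. The muscle mean ended the day 15 calls of Slc5a12, Gcg and Ugt2b36 and the enterocyte mean their day 30 calls. Over all alternatives the day 30 differences ran from 0.60 to 1.51 for Slc5a12, 1.47 to 1.65 for Gcg and 0.56 to 0.91 for Ugt2b36. The day 15 call of Gcg was also lost with the enterocyte mean, and the day 30 call of Ugt2b36 also with the pancreas acinar mean, in the fit to 2 groups and without wild type replicate 2, while those of Guca2a and Xpnpep2 held in all 17 alternatives. None of these 5 lies on chromosome 18 either.

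**Figure D4:**
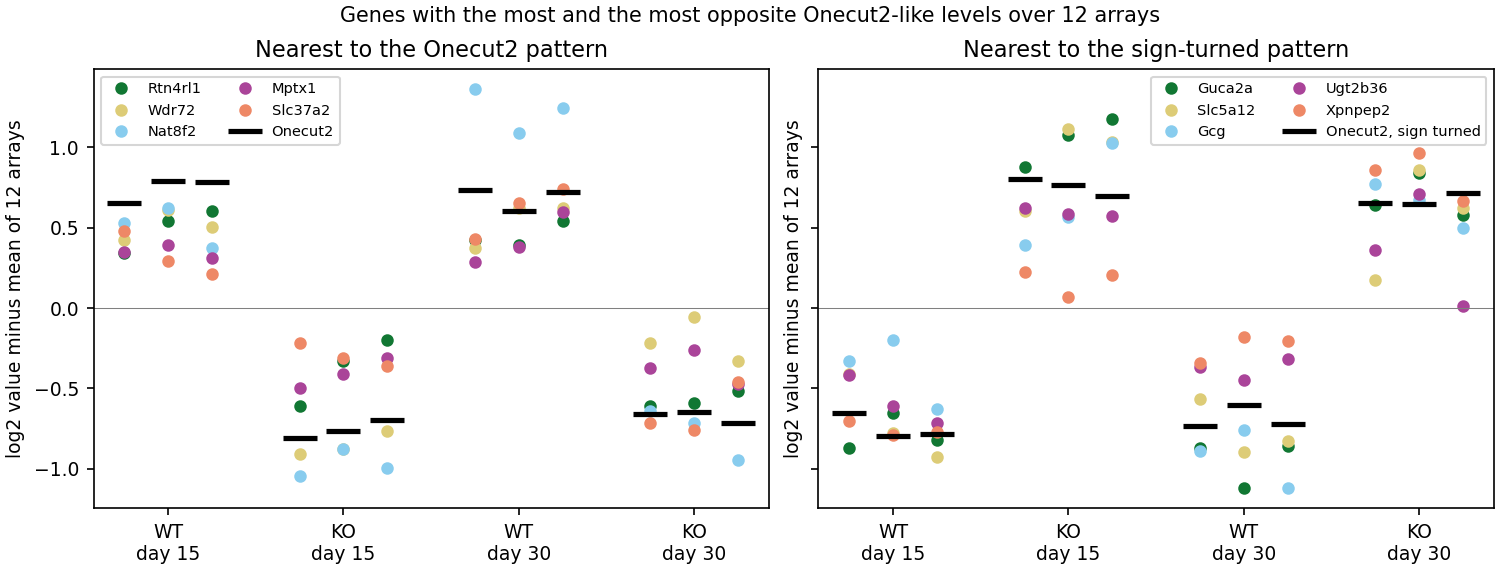
Log2 value minus the mean of the 12 arrays for the 5 genes nearest to Onecut2 (left) and the 5 nearest to its sign-turned pattern (right), by group, with 3 arrays each. Black bars are Onecut2 on each array (sign turned on the right); Nat8f2 has the widest range of the left panel, from 5.83 on average in knockout at day 15 to 8.04 in wild type at day 30.

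For Onecut1 and Onecut3 the same measure was not selective. Their root mean square about their own means was 0.10 and 0.17, and 13849 and 7456 genes lay within 0.2 of them, with predicted loci left out. The nearest to Onecut1 were Fancd2os, Dppa1 and Atp23 (0.05 to 0.06), and the nearest to Onecut3 were Trpc5, Col27a1 and Nme4 (0.08 each). These are genes that, like the members, varied little, and none was called with genotype at either age.

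The core letters of Onecut binding motifs, ATCAAT or the reverse complement ATTGAT, were searched on both strands in windows from 250 bases before to 50 bases after gene starts (RefSeq, GRCm38.p6). They occur in 7.54% of 32851 windows. Of the 10 genes nearest to Onecut2 or to its sign-turned pattern 7 had a window, and 1 of these, Ugt2b36, held the letters. The match is shown because it is the only one among these windows. The stretch of 30 bases around it lies on the minus strand at chr5:87092520-87092549, with the core in capitals. The core begins at base 19 of the transcribed part when the start base is counted as 1.
Ugt2b36: gaagagaagaacATTGATtttcagaatgct
The windows of Onecut1 and Ada did not hold these letters. The longer AATCAATA, or TATTGATT, which contains the core, occurs in 0.755% of windows and in none of those of Onecut1, Ada or these 7 genes.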

How the data were processed

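The deposited table holds log2 expression values per array feature, made by the authors with RMA in Affymetrix Expression Console version 1.1, per the submitters' processing notes. RMA removes background, equalises the distribution of all arrays and combines probes, so a change shared by most genes is removed and folds of dim or very bright features are understated. No genome build is named in the sources used here. Base 2 was taken from the method and the range.

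Of 35557 features, 21789 had 1 symbol in the platform annotation, 1621 several and 12147 none listed. The feature with the highest mean was kept per gene, which left 19938 genes. Chromosomes came from RefSeq (GRCm38.p6), where 21698 features matched. All 12 arrays entered one limma model with a mean per group (limma 3.58.1, R 4.3.3, 8 residual degrees of freedom, eBayes defaults), with Benjamini-Hochberg adjustment over all genes. The code was tested on simulated data. With 3 pools a group, precision is limited by their number.

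The members, gene lists, markers, motif letters and the rule for named genes were chosen with earlier results of these data known. Named genes are the members, Ada, list genes that were called or nearest to a call, and those nearest in pattern (5, 5, 3 and 3, predicted loci left out). The genotype effect averaged over both ages was added after seeing the data. Alternatives were moderation settings, median centring, a filter on dim features, fits to 2 groups, array weights, the lowest-mean feature per gene, a replicate block, 3 marker means as covariates and leaving out each array. The smooth muscle mean did not overlap between ages in either genotype, or between genotypes at day 15. The enterocyte mean did not overlap between genotypes at either age. A call lost with such a covariate cannot tell cell content from the age or genotype compared. Each member has 1 feature, so the choice of feature cannot move its value. The filter on dim features kept the members whatever their signal, so it cannot move their log2 differences either. Same-numbered arrays did not deviate together throughout (correlations from -0.252 to 0.359), so the main model held no replicate block. These correlations cannot tell whether same-numbered samples were handled together.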

Additional observations from a re-analysis of the deposited data

How the results depend on the processing

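Onecut2 was called lower in the knockout in all 17 alternatives at each age, between -1.56 and -1.48 at day 15, and between -1.47 and -1.34 at day 30, and leaving out 1 array gave -1.55 to -1.48 and -1.40 to -1.34. Onecut1 and Onecut3 were called in none of the alternatives run. Of these, the filter on dim features and the choice of feature could not move the log2 difference of any member. Some of their uncalled values changed sign. Onecut3 at day 30, knockout minus wild type, was 0.01 with array weights and ran from -0.14 to 0.09 with 1 array left out. With age in knockout Onecut3 was -0.05 with the enterocyte mean in it and -1.04 with the smooth muscle mean in the model, and -0.06 to 0.12 with 1 array left out. Onecut1 with age was -0.06 in knockout with the smooth muscle mean, and -0.14 to 0.01 in wild type with 1 array left out. Averaged over both ages its genotype effect was 0.01 with the pancreas acinar mean and -0.05 to 0.02 with 1 array left out. With the smooth muscle mean the age differences of Cux1 (0.36 in wild type, 0.23 in knockout), Ttr (0.01), Isl1 (0.10) and Gcg (0.05) in wild type and of Sox9 in knockout (0.06) changed sign. The cause of these turns was not tested. Other uncalled values kept their sign but grew with the smooth muscle mean, as Onecut3 with age in wild type went from -0.12 to -1.54, Onecut3 with genotype at day 15 from -0.19 to -0.66 and Onecut1 with age in wild type from -0.08 to -0.37. Onecut3 averaged over both ages went from -0.12 to -0.41.

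Counts of called genes moved more. At day 15 the 764 became 480 in the fit to 2 groups, 1218 with array weights, and 174, 349 and 87 with the enterocyte, pancreas acinar and smooth muscle means as covariates. They were 340 to 741 with 1 array left out, by over 1.5 times fewer without any single array but knockout replicate 1. At day 30 the 395 became 596 with an intensity trend, 237 in the fit to 2 groups, 19 with the enterocyte mean and 223 with the pancreas acinar mean, and 218 to 338 with 1 array left out (225 without knockout replicate 1, 260 and 218 without wild type replicates 2 and 3). With age the smooth muscle mean, which did not overlap between ages, left 41 of 5849 in wild type and 241 of 6178 in knockout. For the difference between genotype effects the 91 became 177 with an intensity trend, 146 without dim features, 155 with array weights, 45 with the enterocyte mean and 31 with the smooth muscle mean, and 47 to 123 with 1 array left out (47 to 60 without day 15 knockout replicate 2 or 3, day 15 wild type replicate 2 or 3, or day 30 wild type replicate 3). For the averaged effect the 1064 became 64, 452 and 238 with the enterocyte, pancreas acinar and smooth muscle means, and 668 (without day 15 knockout replicate 2) to 976 with 1 array left out. With the replicate number as a block the counts were 611 at day 15 and 331 at day 30, Onecut2 stood at -1.50 and -1.36, and no call of a member changed. Of the 5 genes nearest to Onecut2, 4 remained with the mean absolute difference and 5 with median centring. Onecut1 lay among dim features, where a small change would be flattened.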
